A study of Homo sapiens with 54 samples.

Results

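Of the 58337 regions that an Invitrogen antibody to POLR3G gave in vehicle-treated T47D cells, 22671 (38.9%, 95% interval 38.5 to 39.3) lay in chromatin with no called region of acetylated lysine 27 of histone H3 (H3K27Ac) and no called region of POLR3A in vehicle cells. The share depends on the calls: it was 17.9% with a −log10 q of at least 5, 25.5% with a fold of at least 3 and 23.1% with no H3K27Ac within 1 kb. These 22671 regions, called unacetylated POLR3G regions below, were selected on measured values: a region counted if it shared no base with the H3K27Ac regions of either treatment or with the POLR3A regions of vehicle cells. Another 35387 regions carried H3K27Ac and no POLR3A, and 279 carried POLR3A. All counts are for chromosomes 1 to 22 and X, with 1 window of chromosome 8 left out. T47D is a luminal human breast cancer line that expresses the estrogen receptor and the progesterone receptor (PR). Cells received ethanol (vehicle) or R5020, a synthetic progestin, for 1 h, with 3 libraries for each antibody and treatment. The 54 libraries formed 18 groups, and the 8 antibodies were against PR, POLR3A, POLR3C, POLR3G, POLR3GL, Maf1, Brf1 and H3K27Ac. The POLR3C, POLR3G and POLR3GL libraries were a second set, whereas H3K27Ac, POLR3A, PR, Maf1 and Brf1 belonged to the first. The selection therefore compared lists from both sets.

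RNA polymerase III makes short RNAs such as transfer RNAs, 5S ribosomal RNA and U6 small nuclear RNA. POLR3A is its largest, catalytic subunit. POLR3C, POLR3F and either POLR3G or its paralog POLR3GL form the subcomplex that helps open the promoter. Brf1 brings the polymerase to transfer RNA genes, and Maf1 is a repressor of the polymerase. H3K27Ac marks active promoters and enhancers. The regions described here thus lay apart from the called vehicle sites of the catalytic subunit and from called active promoters and enhancers.

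The word unacetylated holds only for the bases of each region. The median region lay 1472 bp from the nearest H3K27Ac region, and 9167 (40.4%) lay within 1 kb of one. Of the chromosome length, 8.62% lay within 1 kb of H3K27Ac, counting the 3.73% that H3K27Ac covered. The quartiles of this distance were 472 and 3848 bp, and 1711 regions (7.55%) lay 10 kb or more away. Strict distance from acetylation was thus uncommon. At the edge of the rule, 1623 unacetylated regions lay under 100 bp from H3K27Ac and had a median fold of 2.67, a median −log10 q of 3.16 and a median width of 307 bp. The 2105 regions that shared 1 to 99 bp with H3K27Ac, and so fell outside the rule, had 2.68, 3.17 and 302 bp. Regions on either side of this edge had nearly the same values. Markers of cell type were looked up by H3K27Ac within 1 kb of gene starts in vehicle cells. The luminal genes ESR1, FOXA1, GATA3, KRT8, PGR and XBP1 all had it, 6 of 6 with a start in the table used. Of 4 basal or mesenchymal genes TP63 and ZEB1 had it, and KRT5 and VIM did not. Counting H3K27Ac of either treatment, 11057 of 15812 protein-coding genes with a start had it. These few markers therefore cannot settle cell identity.

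Unacetylated POLR3G regions seldom reached a promoter: 164 of 22083 regions on the chromosomes of the promoter table (0.743%, 0.638 to 0.865) touched a window from 250 bases before to 50 bases after the start of a protein-coding gene, against 18.7% (18.2 to 19.1) of the regions with H3K27Ac. They touched 179 windows of 167 genes, and in 42 of these windows H3K27Ac covered other bases. The 6 with the highest −log10 q whose summit fell in the window are shown, each as the 160 bases about the summit on the gene's strand, all before the start, since these promoters differed in their CG dinucleotides from those where POLR3G lay on acetylated DNA. Capitals mark each CG. Sequences are from RefSeq, build GRCh38.p14.
DUX4 (chr4:190173569-190173728, plus strand): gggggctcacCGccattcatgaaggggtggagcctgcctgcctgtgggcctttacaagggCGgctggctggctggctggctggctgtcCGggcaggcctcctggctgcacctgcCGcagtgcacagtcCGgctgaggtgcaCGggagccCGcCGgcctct
APOM (chr6:31655695-31655854, plus strand): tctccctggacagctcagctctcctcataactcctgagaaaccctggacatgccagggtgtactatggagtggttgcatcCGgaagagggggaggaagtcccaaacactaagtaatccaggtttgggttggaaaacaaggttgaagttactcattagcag
GOLGA6A (chr15:74082567-74082726, minus strand): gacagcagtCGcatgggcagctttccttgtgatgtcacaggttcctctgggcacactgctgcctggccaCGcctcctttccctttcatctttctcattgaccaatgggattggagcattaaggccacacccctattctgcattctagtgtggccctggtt
CRISPLD2 (chr16:84819825-84819984, plus strand): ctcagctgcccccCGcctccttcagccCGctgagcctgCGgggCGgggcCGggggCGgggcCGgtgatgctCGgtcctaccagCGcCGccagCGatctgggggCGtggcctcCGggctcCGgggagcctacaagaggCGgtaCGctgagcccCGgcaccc
EVI5L (chr19:7829968-7830127, plus strand): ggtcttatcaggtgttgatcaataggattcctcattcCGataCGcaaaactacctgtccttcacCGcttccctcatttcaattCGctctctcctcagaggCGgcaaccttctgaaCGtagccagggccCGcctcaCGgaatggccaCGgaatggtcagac
DGKA (chr12:55935848-55936007, plus strand): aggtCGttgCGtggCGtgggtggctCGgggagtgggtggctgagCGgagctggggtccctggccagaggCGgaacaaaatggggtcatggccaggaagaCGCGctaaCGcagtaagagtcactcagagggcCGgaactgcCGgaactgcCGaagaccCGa
The promoters of the 2 acetylated POLR3G regions with the highest −log10 q whose summit fell in a window are set beside them.
FAM228B (chr2:24076673-24076832, plus strand): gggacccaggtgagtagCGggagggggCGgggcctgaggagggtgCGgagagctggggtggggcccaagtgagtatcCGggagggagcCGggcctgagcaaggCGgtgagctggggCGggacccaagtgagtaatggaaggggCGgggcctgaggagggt
NOTCH1 (chr9:136546086-136546245, minus strand): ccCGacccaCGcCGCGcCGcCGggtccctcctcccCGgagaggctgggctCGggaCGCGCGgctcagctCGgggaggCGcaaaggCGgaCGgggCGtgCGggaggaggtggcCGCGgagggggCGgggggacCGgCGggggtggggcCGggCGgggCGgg
The APOM stretch, from the gene of a lipid carrier of high-density lipoprotein, holds 1 CG and the GOLGA6A stretch, from a duplicated golgin gene family, holds 2. Those of DUX4, EVI5L, DGKA and CRISPLD2 hold 8, 9, 13 and 17. The acetylated stretches hold 8 at FAM228B and 25 at NOTCH1, the gene of a cell-surface receptor. CG content thus varied widely among single promoters of both kinds. DUX4 lies in an array of near-identical repeats, where reads from different copies cannot be told apart.

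Over all promoter windows the difference in base composition was plain. Windows with an unacetylated POLR3G region had a median ratio of observed to expected CpG of 0.384 (quartiles 0.225 and 0.697), and 60 of 179 (33.5%, 27.0 to 40.7) were above 0.6. For the 8483 windows with an acetylated POLR3G region the median was 0.852 (0.726 and 0.959), and 87.0% (86.2 to 87.7) were above 0.6. The 7513 windows with neither POLR3G nor H3K27Ac had a median of 0.314. The 5890 windows with H3K27Ac and no POLR3G had a median of 0.792, and 72.9% were above 0.6. High ratios thus went with H3K27Ac, which the rule used, with or without POLR3G. In GC content the windows of unacetylated regions, at a median of 60.0%, stood between those with neither mark at 51.7% and the acetylated ones at 66.7%. CpG-poor promoters are typical of tissue-restricted genes and CpG-rich ones of widely used genes. Fixed motifs were searched on both strands. CGCGCG occurred in 11.7% (7.80 to 17.3) of the windows with an unacetylated region, in 29.4% with an acetylated one and in 21.4% of all windows. AGATAA, the GATA factor site, occurred in 7.82% (4.72 to 12.7) against 7.88% of all windows, and CACGTG, the E-box, in 6.15% (3.47 to 10.7) against 8.34%. The palindromic hormone response element bound by PR was found in 2 of 179 windows (1.12%, 0.307 to 3.98) and in 0.294% of all windows. The B box of transfer RNA genes was found in 0 of 179, which allows a share of up to 1.68% (3 counts of the total).

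**Figure D1:**
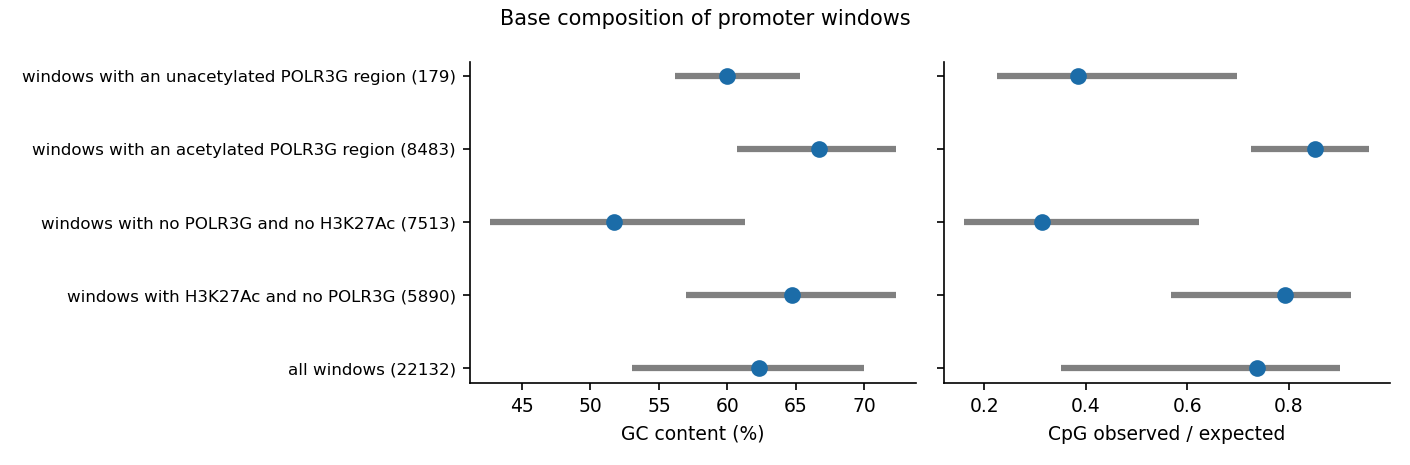
GC content (left, percent) and ratio of observed to expected CpG (right) of promoter windows, grouped by the POLR3G and H3K27Ac regions they touch, with the number of windows in brackets. Points are medians and grey bars span the quartiles; windows with an unacetylated POLR3G region sit at 0.384 on the right, close to windows with neither POLR3G nor H3K27Ac at 0.314 and far from acetylated POLR3G windows at 0.852.

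The unacetylated regions were weak and narrow calls. Fold is the authors' enrichment at the summit over the peak caller's background, and −log10 q is the authors' score for the same call. Which control the background came from is not given in the sources used here, and the 6 inputs among the samples belong to the first set, not to the second that holds POLR3G. Both values come from the list that chose the regions and are given as a description. Their fold ran from 1.46 to 5.42 with a median of 2.67 (quartiles 2.44 and 2.95), against a median of 2.88 (2.55 and 3.33) for regions with H3K27Ac. Median −log10 q was 3.03 against 3.74, and only 70 unacetylated regions (0.309%) reached 10, against 2004 (5.66%) of the acetylated ones. The median width was 313 bp against 441 bp. Values fell on few steps: the 10 commonest pairs of fold and −log10 q held 23.9% of the unacetylated and 21.8% of the acetylated regions, so ranks within either class hold many ties.

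Strong regions were few. Ranked by −log10 q, the first was a region of 8386 bp (chr7:73671917-73680302, build hg38) over VPS37D, which encodes a subunit of the ESCRT-I sorting complex. It had a fold of 5.28 and a −log10 q of 17.3, lay 215 bp from H3K27Ac, and overlapped R5020 regions of POLR3G, PR and Maf1. The second, of 536 bp inside LRPAP1 (fold 5.42, −log10 q 17.1, 4481 bp from H3K27Ac), had an R5020 POLR3G region and no region of another antibody; LRPAP1 encodes a chaperone of lipoprotein receptors. The third lay inside OPRL1, the nociceptin receptor gene (fold 3.15, −log10 q 16.2), and overlapped R5020 regions of POLR3C, PR and Maf1. Others of the first 10 lay in a long noncoding gene on chromosome 9 (LOC124902167, −log10 q 15.7), in EPPK1 (15.4), in ADCK5 (14.6), between genes 10141 bp from ZFPM1 (14.5), 730 bp from EEF1A2 (14.4), at DUX4 (13.7) and 2426 bp from ZDHHC11B (13.6). EPPK1 encodes the cytoskeletal linker epiplakin, and EEF1A2 a translation elongation factor. All 10 overlapped an R5020 POLR3G region. At the other end, the 3 regions with the lowest −log10 q, each 1.30 at a fold of 1.79, lay inside LIPH, 2289 bp from TRA2B and inside CIZ1. None of those 3 had an R5020 POLR3G region.

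After R5020, 5007 unacetylated regions (22.1%, 21.6 to 22.6) overlapped an R5020 POLR3G region, a list the rule did not use. The share was 49.8% (49.2 to 50.3) for regions with H3K27Ac and 39.2% over all vehicle POLR3G regions. The difference between the unacetylated and acetylated regions was −27.7 points (−28.4 to −26.9). These intervals, and all others here, are 95% Wilson or Newcombe intervals of counting error over regions. Since the 3 libraries were deposited as a single list, replicate spread cannot be had, and no p-value is given. Of the 3 POLR3G libraries titled R5020, replicate 1 carries an ethanol tag, so retention rests on the titles. R5020 POLR3G regions covered 16.3% of the bases of the unacetylated regions and 0.276% of all DNA without H3K27Ac.

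Lower retention was seen at every strength and width. Among regions with a −log10 q of 2 to below 3, 14.8% (14.0 to 15.6) of 8074 unacetylated regions were retained against 29.0% (28.0 to 29.9) of 8370 acetylated ones. At 6 to below 10 the shares were 56.9% (53.8 to 59.9) and 81.6% (80.5 to 82.6), and at 10 or more 80.0% (69.2 to 87.7) of 70 and 97.6% (96.8 to 98.2) of 2004. In the narrowest class, from 198 to below 250 bp, they were 11.7% and 24.4%, and in regions of 1000 bp or more 76.9% and 91.6%. When −log10 q and width were crossed, the unacetylated share was lower in 25 of 25 cells with at least 20 regions of both kinds, and it was lower on 23 of 23 chromosomes. Retention fell with distance from acetylation: 26.4% (24.9 to 27.8) of regions under 250 bp from H3K27Ac were retained, 20.7% (19.6 to 21.8) at 2000 to below 5000 bp and 10.7% (9.32 to 12.2) at 10 kb or more. Median −log10 q fell along with it, from 3.19 to 2.82, and its part in the decline was not tested. Just outside the rule, the regions with 1 to 99 bp of H3K27Ac were retained at 25.5% (23.7 to 27.4), and those under 100 bp away at 25.9% (23.9 to 28.1). Retained regions had a median fold of 2.80, a median −log10 q of 3.70 and a median width of 431 bp, against 2.66, 2.82 and 295 bp for those not retained.

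**Figure D2:**
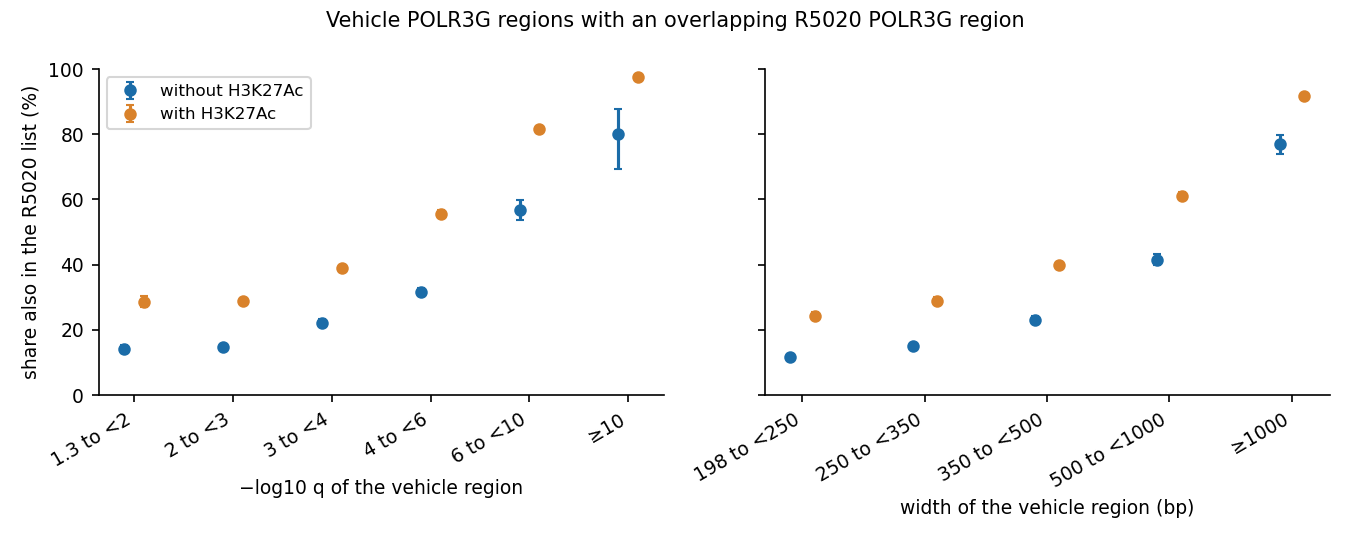
Share of vehicle POLR3G regions that overlap an R5020 POLR3G region (percent), by −log10 q (left) and width in bp (right) of the vehicle region, for regions without H3K27Ac (blue) and with it (orange). Bars are 95% Wilson intervals; the blue points lie below the orange ones in every class, from 14.2% against 28.7% at the lowest −log10 q to 80.0% against 97.6% at the highest.

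The same rule applied to the R5020 POLR3G list (no H3K27Ac of either treatment, no R5020 POLR3A) gave 15916 of 46807 regions (34.0%). Of these, 4756 (29.9%) overlapped an unacetylated vehicle region, and 9781 (61.5%) overlapped no vehicle POLR3G region of any kind. Most unacetylated regions of either list were thus called in that list alone. The 9781 R5020-only regions were not used by the rule and give a second description of position below. They were chosen with the same H3K27Ac lists. Low density beside H3K27Ac, as at gene starts, is therefore partly fixed for both lists.

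Other antibodies were rarely found at unacetylated POLR3G regions: 21108 (93.1%, 92.8 to 93.4) overlapped no region of PR, Maf1, Brf1, POLR3A, POLR3C or POLR3GL in either treatment, 1467 (6.47%) overlapped regions of 1 antibody, 92 of 2 antibodies and 4 of 3. Among regions with H3K27Ac, which likewise lack vehicle POLR3A by their definition, 50.6% (50.1 to 51.1) overlapped no region of another antibody. PR after R5020 was the most frequent. It was found at 1319 regions (5.82%, 5.52 to 6.13), against 46.3% (45.8 to 46.8) of the acetylated regions and 30.6% of all vehicle POLR3G regions. With vehicle, PR was found at 25 regions (0.110%), against 11.1% of acetylated and 6.84% of all regions. R5020 PR regions covered 2.66% of the bases of unacetylated POLR3G regions and 1.38% of all DNA without H3K27Ac. PR overlap was 9.71% (8.77 to 10.7) under 250 bp from H3K27Ac, 4.20% (3.68 to 4.78) at 2000 to below 5000 bp and 5.14% (4.19 to 6.29) at 10 kb or more, so it did not keep falling with distance. Regions with R5020 PR were retained in the POLR3G list at 27.5% (25.2 to 30.0), against 21.7% (21.2 to 22.3) for those without, which is 5.77 points higher (3.36 to 8.30). Width and −log10 q were not matched in this contrast. The R5020 PR list is far longer than the vehicle list, 172825 against 6633 regions; its 6633 strongest regions gave 0.101%, below the vehicle share of 0.110%. The strongest PR-bearing regions, after those at VPS37D and OPRL1, were at RPL22L1 (chr3:170864044-170866026, fold 3.45, −log10 q 12.9), at MTA1 (fold 4.88, 12.6) and in intergenic DNA of chromosome 7, 288918 bp from NFE2L3 (fold 4.15, 11.4). RPL22L1 encodes a paralog of a ribosomal protein, and MTA1 a subunit of the NuRD chromatin remodelling complex. The intergenic region also carried PR with vehicle; of the 25 regions with vehicle PR, 19 had R5020 PR.

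Maf1 after R5020 was found at 251 unacetylated regions (1.11%, 0.979 to 1.25), against 25.3% of acetylated and 16.0% of all vehicle POLR3G regions. With vehicle, Maf1 was found at 35 (0.154%), against 5.91% and 3.70%. The R5020 Maf1 list holds 22585 regions and the vehicle list 3034; the 3034 strongest R5020 regions gave 0.0485%, which turns the direction. R5020 Maf1 regions covered 0.690% of the bases of unacetylated POLR3G regions and 0.0609% of all DNA without H3K27Ac. Of the 251 regions, 77 (30.7%, 25.3 to 36.6) also had R5020 PR, against 5.54% (5.25 to 5.85) of the unacetylated regions without Maf1. Retention of the 251 was 60.2% (54.0 to 66.0), against 21.7% (21.1 to 22.2) of those without Maf1. Retention rose with width and −log10 q, which were not matched in this contrast, and their part in it was not tested. The 5 strongest lay at VPS37D, OPRL1, beside EEF1A2, at PURB (chr7:44874757-44879711, fold 4.14, −log10 q 13.4) and at RPL22L1. PURB encodes a single-stranded DNA-binding regulator of transcription.

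Subunits of polymerase III and Brf1 were found at fewer unacetylated regions than PR or Maf1 after R5020. Their lists are also far shorter: 497 regions for vehicle POLR3GL, 666 for vehicle POLR3C, 370 for vehicle Brf1 and 1018 for R5020 POLR3A. Of these list regions 7.65%, 1.95%, 0.270% and 0.295% lay at unacetylated POLR3G regions. For R5020 PR and R5020 Maf1 the values were 0.757% and 1.17%, so the order differs from that of the counts. The shares over all vehicle POLR3G regions include the 279 regions with POLR3A that the rule removed, which held 213 of the 233 with vehicle Brf1, 104 of the 391 with vehicle POLR3C and 259 of the 287 with R5020 POLR3A. A gap from those shares is therefore fixed in part by the rule, and the regions set beside the unacetylated ones are the acetylated ones, which also lack vehicle POLR3A. POLR3C was found with vehicle at 13 unacetylated regions (0.0573%, 0.0335 to 0.0981) and with R5020 at 10 (0.0441%), against 0.774% and 0.788% of acetylated regions and 0.670% and 0.682% of all vehicle POLR3G regions. The 5 strongest of these lay inside OPRL1, at DUX4, 2426 bp from ZDHHC11B and at a pair of sites in the 5S ribosomal RNA gene array of chromosome 1. The sites in the array (chr1:228627189-228627563, fold 2.64, −log10 q 12.6, and chr1:228618310-228618650, fold 2.17, 7.54) lay 582 bp from RNA5S9 and 579 bp from RNA5S5, between copies of a repeated unit. Both overlapped POLR3C in both treatments, and the first also R5020 POLR3A and vehicle PR. R5020 POLR3A was found at 3 regions (0.0132%, against 0.0706% of acetylated and 0.492% of all regions): that one, the one beside EEF1A2 and one on chromosome 4, 635 bp from DUX4L3, a pseudogene of the DUX4 repeat family. Brf1 was found at 1 region with vehicle (0.00441%, against 0.0537% and 0.399%) and at 4 with R5020 (0.0176%, against 0.698% and 0.842%). The vehicle one lay 342 bp from the tyrosine transfer RNA gene TRY-GTA1-1, and one of the R5020 ones 791 bp from the valine transfer RNA gene TRV-AAC1-5. POLR3GL also had lower unacetylated shares, but by too little to resolve from counting error. It was found with vehicle at 37 regions (0.163%, 0.118 to 0.225), against 0.206% (0.164 to 0.259) of acetylated and 0.189% of all regions; the unacetylated minus the acetylated share was −0.0431 points, with an interval from −0.112 to 0.0316. With R5020 it was found at 27 (0.119%), against 0.138% and 0.149%, and the same subtraction gave −0.0194 points, from −0.0774 to 0.0444. Both intervals include 0. Low shares did not mean low coverage beside other DNA without H3K27Ac. Vehicle POLR3C covered 0.0345% of the bases of unacetylated regions and 0.00274% of all DNA without H3K27Ac. For vehicle POLR3GL the values were 0.116% and 0.00435%. R5020 POLR3A was close, at 0.00864% and 0.00781%, and vehicle Brf1 lay below, at 0.000711% and 0.00335%. The POLR3C and POLR3GL lists for R5020 also draw on libraries tagged ethanol, replicates 1 and 2 of POLR3C and replicate 1 of POLR3GL.

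**Figure D3:**
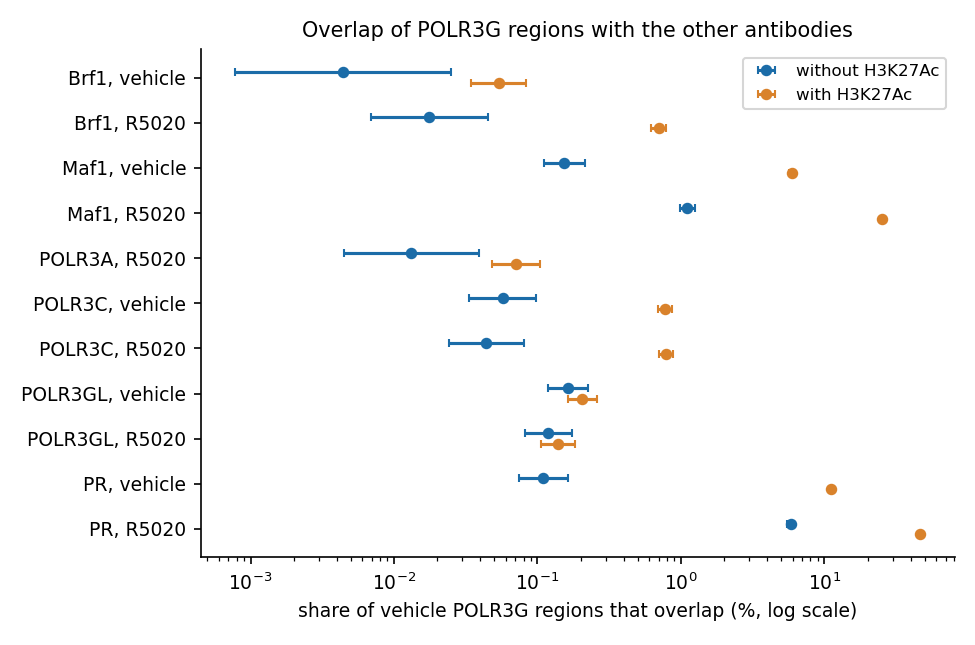
Share of vehicle POLR3G regions that overlap a region of each other antibody (percent, log axis), for regions without H3K27Ac (blue) and with it (orange); bars are 95% Wilson intervals. PR after R5020 stands at 5.82% against 46.3%, and for POLR3GL alone the intervals of both classes overlap in both treatments.

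Genes that polymerase III transcribes held none of these regions. Within 200 bp of 443 transfer RNA genes there were 0 unacetylated POLR3G regions. The rule removes regions with POLR3A, and 363 of these genes had such a region, so only the other 80 could have held one, and 0 of 80 allows a share of up to 3.75% (3 counts of the total); likewise all 17 genes of 5S ribosomal RNA, 6 of U6 type, 3 of 7SL and 4 of Y RNA had POLR3A. Pseudogenes copied from such RNAs were sparsely marked: 17 of 1310 U6 pseudogenes (1.30%, 0.812 to 2.07), 2 of 292 for 7SK, 5 of 681 for 7SL, 6 of 504 for 5S and 1 of 75 for Y RNA. Over all 16458 pseudogenes the share was 2.55% (2.32 to 2.80). The strongest at a pseudogene of these kinds was near RNA5SP442 (chr17:41716941-41717998, fold 3.99, −log10 q 7.37), which also had R5020 POLR3G and PR regions.

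Most unacetylated POLR3G regions lay inside protein-coding genes: 14911 (65.8%, 65.2 to 66.4), where protein-coding genes make up 40.9% of the DNA without H3K27Ac. Another 5891 (26.0%) lay in no gene of the RefSeq table. Among acetylated regions 70.6% (70.1 to 71.1) lay inside protein-coding genes. Starts of genes set both classes apart: 2.20% (2.02 to 2.40) of the unacetylated and 25.1% (24.6 to 25.5) of the acetylated regions lay within 1 kb of a start. H3K27Ac is itself concentrated at starts, so the rule leaves little DNA there to count. At 3′ ends the shares were 8.95% (8.58 to 9.33) and 7.97% (7.69 to 8.27), higher by 0.974 points in the unacetylated class (0.504 to 1.45). Within 1 kb of either end lay 13.0% (12.5 to 13.4) and 36.0%. Regions near an end were retained after R5020 at 33.4% (31.7 to 35.1), and the others at 20.4% (19.8 to 21.0), with width and −log10 q not matched. The 5 with the highest −log10 q near an end lay at VPS37D, beside EEF1A2, at DUX4, at PURB and at EPPK1 (a second region of that gene, fold 4.15, −log10 q 13.0), and all 5 were retained.

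Unacetylated POLR3G regions were denser in genes with an acetylated start. Counted by summit over DNA without H3K27Ac, there were 17.0 unacetylated POLR3G regions per Mb inside genes with H3K27Ac within 1 kb of the start (10795 regions, 47.6%), 2.45 per Mb inside genes without it (833), 14.1 per Mb inside genes with no strand in the table (3027), 4.65 per Mb outside protein-coding genes (8016) and 7.77 per Mb overall. Of 11057 genes with an acetylated start 3416 (30.9%, 30.0 to 31.8) held a region, and of 4755 others 369 (7.76%, 7.03 to 8.56). The contrast held in each length class, for example 29.4% against 6.22% in genes under 10 kb and 18.3% against 6.40% in genes of 100 kb or more. It was not particular to unacetylated regions. In the last of 10 equal parts of genes, acetylated POLR3G regions had 23.3 per Mb of all DNA with an acetylated start and 2.80 without. Unacetylated regions had 28.2 and 4.55 per Mb of DNA without H3K27Ac there.

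Along genes the density rose toward the 3′ end. In 14897 genes divided into 10 equal parts, the density was 8.26 per Mb of DNA without H3K27Ac in the first part, 10.7 in the fifth and 20.0 in the last. The 2 kb before the start had 40.8 per Mb and the 2 kb beyond the 3′ end 66.9. In 8923 genes of 20 kb or more, where each gene weighs alike, the density was 19.2 per Mb at 18 to 20 kb before the 3′ end, 39.7 in the last 2 kb, 39.9 in the next 2 kb and 29.3 at 18 to 20 kb beyond. A smaller rise stood before the start, with 35.7 per Mb at 2 to 4 kb upstream against 21.9 at 18 to 20 kb upstream and 19.6 in the first 2 kb of the gene. Neighbouring genes contribute to all these values. Among 3857 genes with no protein-coding gene in the 20 kb beyond their 3′ end, a set chosen after the first profile was seen, densities were lower throughout: 7.03 per Mb at 18 to 20 kb before the end, 11.8 at 2 to 4 kb before it, 10.9 just beyond it and 7.56 at 18 to 20 kb beyond. These bins hold 43 to 88 regions each. The R5020-only regions followed the same course, from 4.35 per Mb in the first of 10 parts to 8.20 in the last, and at 18.2 per Mb just beyond the 3′ end of the longer genes against 9.62 at 18 to 20 kb before it. Acetylated POLR3G regions, counted per Mb of all DNA, were densest at the start, where H3K27Ac is itself concentrated. There they had 178 and 179 per Mb in the 2 kb on either side. They rose around 3′ ends of the longer genes too. Their density was 19.3 per Mb at 18 to 20 kb before the end and 46.3 in the 2 kb beyond it. It was 49.8 at 2 to 4 kb beyond and 33.5 at 18 to 20 kb beyond. A rise around 3′ ends was thus seen in both classes.

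**Figure D4:**
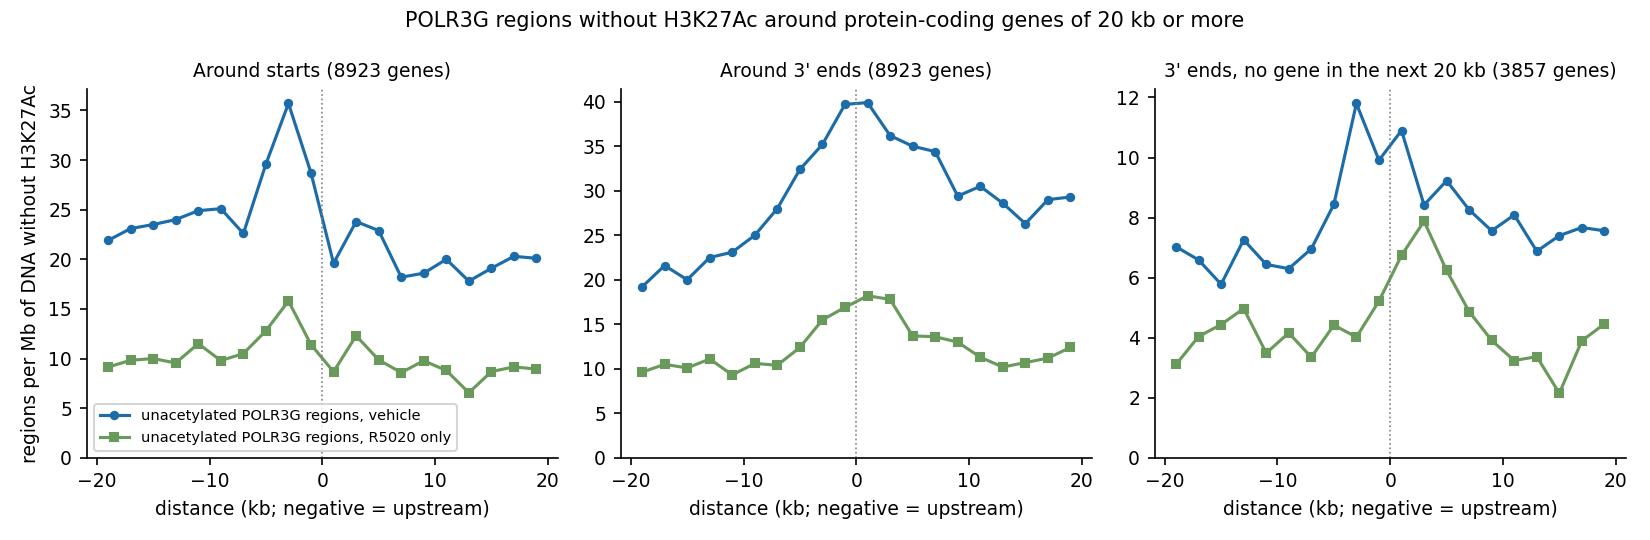
Density of unacetylated POLR3G regions (summits per Mb of DNA without H3K27Ac) in bins of 2 kb around starts and 3′ ends of genes of 20 kb or more, and around 3′ ends with no protein-coding gene in the next 20 kb; distance in kb, negative upstream. Vertical scales differ between panels; vehicle regions (blue) peak at 39.9 per Mb just beyond 3′ ends and R5020-only regions (green) at 18.2.

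Single genes could hold many regions. Of 15812 genes, 12027 (76.1%) held none, 1475 held 1 and 198 (1.25%) held 10 or more. The genes with the most, chosen after their counts were seen, were GCN1 with 40 in 67.5 kb, ASH1L with 38 in 228 kb, LRBA with 34 in 751 kb, SLC12A7 with 33, CCDC57 with 32, FANCA with 31, and SEC16A (44.6 kb) and ZDHHC11B with 30 each. GCN1 acts with the kinase GCN2 in the response to amino acid shortage, ASH1L is a histone methyltransferase, FANCA belongs to the Fanconi anaemia DNA repair complex, and SEC16A organises exit sites of the endoplasmic reticulum. Their retention after R5020 varied: 22 of 30 regions in SEC16A, 19 of 40 in GCN1 and 16 of 31 in FANCA, but 5 of 38 in ASH1L, 1 of 34 in LRBA and 1 of 29 in RPTOR, the gene of the mTORC1 subunit Raptor. Among genes of 20 kb or more the densest was ATG2A, an autophagy gene, at 7.50 regions per 10 kb, of which 1 of 17 was retained. Further dense genes were EIF3B, a translation initiation factor (12 of 15 retained), EXOC3 of the exocyst (12 of 13), ABCF1 (10 of 11) and TSC2, an inhibitor of mTORC1 (11 of 22). All the genes named here had H3K27Ac at their start.

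Genes known to respond to progestins did not stand out as a list. Unacetylated regions lay within 1 kb of 4 of 16 such genes (25.0%, 10.2 to 49.5), where the share over all protein-coding genes was 25.7% (25.1 to 26.3). PGR, the gene of PR itself, held most of them. It had 21 inside its 100 kb, with folds of 2.07 to 3.97 and a median of 2.66, beside 43 acetylated POLR3G regions. Of the 21, 11 lay in the first 50% of the gene and 10 in the last 50%, and 13 were retained after R5020. Within 10 kb, PGR had 24 regions, 4 of them with R5020 PR. STAT5A had 6 within 10 kb (2 with R5020 PR, 0 retained), PER1 5 (2 retained), CCND1 3 (1 retained) and GREB1 1. FKBP5, KLF9, MYC, SGK1, TSC22D3 and ZBTB16 had 0, although R5020 PR regions numbered 46 within 10 kb of FKBP5 and 23 of ZBTB16.

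Shares of genes with a region within 1 kb are read here against the 25.7% of all protein-coding genes. Of 80 cytosolic ribosomal protein genes 36 (45.0%, 34.6 to 55.9) had an unacetylated region within 1 kb, among them RPL28 with 8, RPS3 with 6, RPL6 with 5 and RPL3L with 7, a muscle-restricted paralog. Of the 63 with a strand in the table, 1 had a region within 1 kb of its start and 17 (27.0%, 17.6 to 39.0) within 1 kb of its 3′ end. For all 2525 genes under 10 kb with an acetylated start, the 3′ end share was 22.8% (21.2 to 24.4), so the intervals overlap. Of the 63, 61 had an acetylated start. Over the whole gene and 1 kb around it, the share was 42.9% (31.4 to 55.1) of the 63. It was 35.0% (33.1 to 36.9) of the 2525, and these intervals overlap too. Genes of the polymerase III machinery had regions at 10 of 28 (35.7%, 20.7 to 54.2), an interval that includes the share of all genes. Among them, BRF1 had 12 with 2 retained, SNAPC4 7 with 7 retained, GTF3C2 and GTF3C5 6 each, SNAPC5 5, POLR3C 4, BDP1 2, and GTF3C4 and POLR3A 1 each. Among 478 genes named ZNF the share was 23.2% (19.7 to 27.2), near that of all genes. Replication-dependent histone genes had regions at 4 of 73 (5.48%, 2.15 to 13.3), although 76.7% had an acetylated POLR3G region. The HOX clusters had them at HOXB1, HOXC12 and HOXC13 only, 3 of 39 (7.69%, 2.65 to 20.3), and other developmental regulators at 7 of 82 (8.54%, 4.20 to 16.6), namely FOXD1, LHX3, PAX2, TBX2, TLX1, WNT1 and WNT10B. Olfactory receptor genes, silent in breast cells, had them at 2 of 417 (0.480%, 0.132 to 1.73), and keratin-associated genes at 2 of 94. Clustered protocadherin genes gave 23 of 54, but their spans overlap and nearly all of the 23 count the same 1 or 2 regions on chromosome 5. Of luminal markers PGR and KRT8, with 4 regions, had them, 2 of 9 (22.2%, 6.32 to 54.7), and of basal markers TP63 and KRT17, with 1 each, 2 of 6 (33.3%, 9.68 to 70.0). Both intervals include 25.7%. The families differ in gene length, with medians from 496 bp for histone genes to 23398 bp for ZNF genes and 107576 bp for clustered protocadherin genes. The part of gene length in these shares was not tested. MicroRNA genes had a region within 200 bp at 67 of 1911 (3.51%, 2.77 to 4.43) and small nucleolar RNA genes at 35 of 1196 (2.93%, 2.11 to 4.04).

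Across chromosomes the density ran from 0.212 per Mb on chromosome 18 (17 regions) to 45.4 per Mb on chromosome 19 (2660 regions). Chromosomes 17 with 32.7 per Mb and 16 with 22.0 followed, and 13 with 0.586 and X with 0.801 stood near the bottom. Density of regions and of protein-coding genes went together over the 23 chromosomes (Pearson r 0.948, Spearman rho 0.900), and r was 0.845 without chromosomes 17 and 19. Densities of unacetylated and acetylated POLR3G regions went together more closely (Pearson r 0.988), so the pattern is not particular to the unacetylated ones. Chromosomes share library and depth and are not replicates, so this is a description. Relative to acetylated POLR3G regions the spread was smaller, from 0.131 unacetylated regions per acetylated one on chromosome 18 to 0.782 on chromosome 7.

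**Figure D5:**
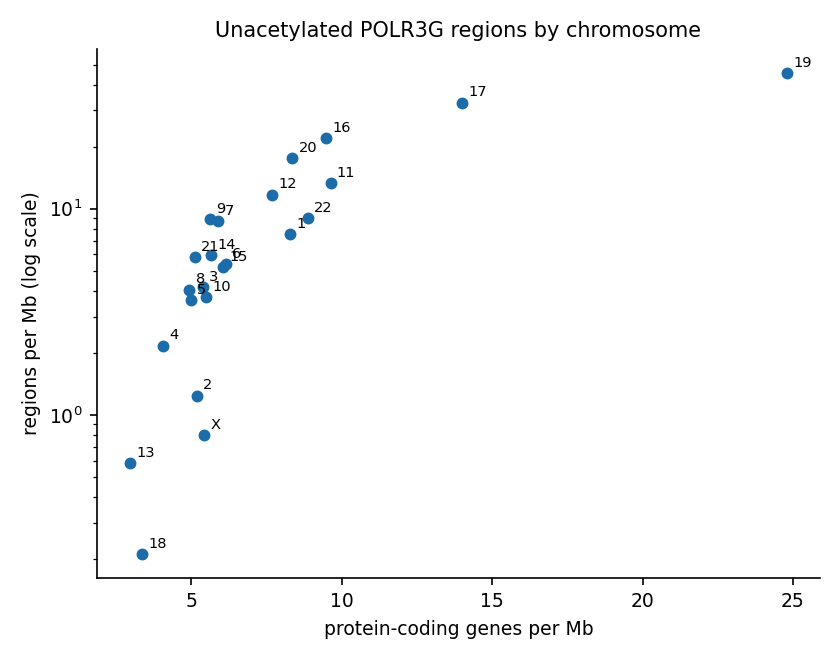
Unacetylated POLR3G regions per Mb (log axis) against protein-coding genes per Mb for chromosomes 1 to 22 and X, 1 point each. Chromosome 19 lies highest at 45.4 per Mb and chromosome 18 lowest at 0.212; chromosomes 2 and X lie low for their gene density.

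Within chromosomes the regions were clustered and leaned to the ends. The median gap between neighbouring unacetylated regions was 3730 bp, where equal spacing over the chromosomes would give a mean of 133654 bp. Gaps between acetylated regions were not set beside these. Of the unacetylated regions, 50% lay in 87 of 3043 windows of 1 Mb. The fullest windows were at 89 to 90 Mb of chromosome 16 with 285 regions, 128 to 129 Mb of chromosome 9 with 235 and 31 to 32 Mb of chromosome 6, in the major histocompatibility complex, with 234 unacetylated and 136 acetylated regions. Within 2 Mb of a chromosome end lay 19.8% (19.3 to 20.4) of the unacetylated regions, in 3.04% of the length, against 15.3% (15.0 to 15.7) of the acetylated regions and 7.41% (7.06 to 7.79) of protein-coding genes. The R5020-only regions stood at 17.9% (17.1 to 18.7).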

How the data were processed

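Chromatin immunoprecipitation libraries of T47D cells were sequenced by the authors, who deposited 16 narrowPeak lists, 1 per antibody and treatment, each standing for 3 libraries; how these were combined is not given in the sources used here. The submitters' processing notes name cutadapt, Bowtie2, MACS2 and hg38. The deposited lists hold a fold (a ratio over the caller's background), a −log10 p-value and a −log10 q-value per region; read depth is unknown. Members and gene lists were chosen with earlier results of these data known. Regions were compared by shared bases (at least 1 bp) with Python 3.11.15, numpy 2.4.6 and pandas 2.3.3, tested on simulated data with planted overlaps. Intervals are 95% Wilson and Newcombe intervals of counting error; neighbouring regions are not independent, and PCR duplicates cannot be assessed. Genes came from the RefSeq table of GRCh38.p14; 82.1% of 19259 protein-coding genes off chromosome 8 had a strand and start, from RefSeq promoter windows. No genome was used, so the planned base composition of all regions was replaced by that of promoter windows. Named regions are the 10 highest by −log10 q, the 5 highest near a gene end, with R5020 PR, with POLR3C and with R5020 Maf1, the 3 lowest, and those at the listed genes; the other genes and the R5020 POLR3A and Brf1 regions were chosen after their values were seen. Alternatives changed the threshold, the overlap, the distance to H3K27Ac, the chromosomes and the list length.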

Additional observations from a re-analysis of the deposited data

How the results depend on the processing

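Of 40 alternative values 17 fell within the interval of the reported value, among them all those that left out regions with R5020 POLR3A or kept Y and the chromosome 8 window. In 34 of 34 alternatives that compared shares, the unacetylated share was below the acetylated one, with an interval below 0. These covered retention, the overlaps with R5020 PR, R5020 Maf1 and vehicle POLR3C, and the gene end share. The POLR3GL overlap and the share at 3′ ends were not among them. The gene end share is in part fixed by the rule, since H3K27Ac is concentrated at starts. With −log10 q of at least 5 in both POLR3G lists the unacetylated share was 17.9%, retention 15.7%, R5020 PR overlap 6.23%, R5020 Maf1 overlap 2.75%, vehicle POLR3C overlap 0.369% and the gene end share 20.0%. With a fold of at least 3 the unacetylated share was 25.5%, retention 16.2%, Maf1 overlap 1.57% and the gene end share 18.0%. With 50% of a region covered in place of 1 bp they were 48.3% (28186 regions), 13.3%, 0.922% and 15.2%, and PR overlap 3.79%. With no H3K27Ac within 1 kb the unacetylated share was 23.1% (13504 regions), retention 19.7%, PR overlap 4.53% and the gene end share 11.5%. Equal numbers of top POLR3G regions gave a retention of 24.7% against 53.9% for acetylated regions. As many top R5020 regions as the vehicle list holds gave 0.101% for PR and 0.0485% for Maf1, below the vehicle shares of 0.110% and 0.154%. Gene ends within 5 kb gave 50.1% against 61.7%. The causes of these shifts were not tested. No paired analysis was possible because each list pools its 3 libraries; for the same reason no replicate could be left out, the libraries with conflicting tags could not be removed, and depth and replicate spread are unknown.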
